A study of Homo sapiens with 12 samples.

Results

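This comparison asks what BEZ-235 changed in NB-1 cells that were also given SAHA. It sets the 3 libraries of cells given 0.5 µM BEZ-235 and 0.5 µM SAHA together for 48 h against the 3 libraries of cells given 0.5 µM SAHA without BEZ-235 for the same time, which is 6 of the 12 libraries of the series. The other 6 come from cells given 0.5 µM BEZ-235 and cells given DMSO, the solvent. They served to estimate the spread between replicates and to show what BEZ-235 did where SAHA was absent. Every group held 3 biological replicates of one established line, so the data describe NB-1 and no other neuroblastoma. NB-1 is a human neuroblastoma line with amplified MYCN and ALK genes. BEZ-235, also called dactolisib, inhibits PI3K together with mTOR. SAHA, also called vorinostat, inhibits histone deacetylases. Members of the comparison were chosen by treatment label, not by any measured value.

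PI3K sits below growth factor receptors such as ALK and the insulin receptor and switches on the kinase AKT. AKT keeps FOXO transcription factors out of the nucleus and releases mTOR, whose complexes promote the translation of messenger RNAs for ribosomal proteins and the synthesis of sterols, nucleotides and other building blocks. Histone deacetylases strip acetyl groups from chromatin and from many other proteins, and their inhibitors raise and lower many genes. Tumours driven by ALK and MYCN depend in part on PI3K and mTOR signalling, which is why inhibitors of both enzyme classes have been tried together in this disease.

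Polyadenylated RNA was sequenced from stranded libraries. Those of both drugs held 17662944 to 21812605 counts, and those of SAHA alone 19248541, 79543539 and 29544051 in replicates 1 to 3. All 12 neuroblastoma marker genes fixed for the check were present in every one of these 6 libraries. PHOX2A was at 199 to 313 CPM (counts scaled to equal library totals) with both drugs and 113 to 142 with SAHA alone. DBH was the lowest, at 2.15 to 2.75 and 0.83 to 1.14. The glial list was divided. SOX10 and CDH19 had no counts, but PMP22 was at 318 to 338 CPM with both drugs and 303 to 326 with SAHA alone. NGFR was at 34.8 to 47.4 and 41.7 to 43.1. FAP of the fibroblast list had no counts. Of 9 fibroblast marker genes with enough counts to test, 7 fell and 1 rose. Their summed level was at most 237 adjusted CPM with both drugs, against 404 to 472 with SAHA alone, and most of it was LUM. The part of other cells in any result was not tested. In bulk RNA, fewer cells of a type or cell cycle phase and less RNA per cell cannot be told apart.

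The counts of the combination libraries rose with the GC content of transcripts, whereas those of the SAHA libraries fell with it. When genes were put in 5 bins of equal size by GC content, in the lowest bin (26.5 to 41.1%), the median log2 fold change of both drugs over SAHA alone was -0.48 before correction, and in the highest bin (57.8 to 75.3%) it was 0.63. A smooth trend of counts with GC content and transcript length was therefore taken out of each library. After it the medians of the 5 bins lay between 0.02 and 0.04, which follows from taking the trend out and is no check of it. The trend went with the treatment group, so any effect of BEZ-235 that follows GC content would be taken out as well. The cause of the trend was not tested. Levels below are adjusted CPM, which are CPM after this correction. Log2 fold changes (both drugs over SAHA alone) are given ± SE with n = 3 per group, and a gene is said to have risen or fallen where the Benjamini-Hochberg adjusted p of edgeR's quasi-likelihood test over 17774 genes was under 0.05. Where the log2 fold change of a named gene without the correction had another call or sign, or differed by more than 1.5 times, it is given as well and called uncorrected.

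**Figure D1:**
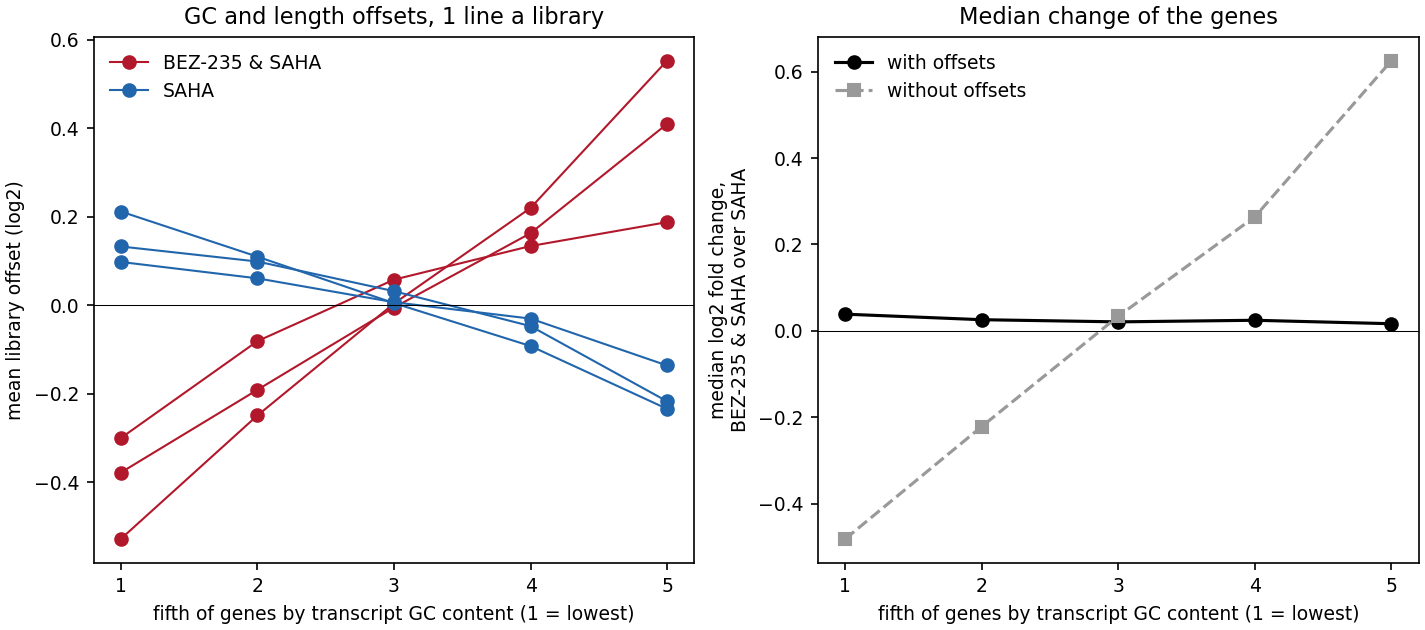
Left, the mean GC and length offset of each library (log2) in 5 bins of genes by transcript GC content, 1 line a library; right, the median log2 fold change of BEZ-235 & SAHA over SAHA in the same bins, with and without the offsets. In the highest bin the 3 combination libraries stand at 0.188, 0.41 and 0.553 and the 3 SAHA libraries at -0.136, -0.217 and -0.234.

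In all, 4743 genes rose and 4559 fell when BEZ-235 was present with SAHA, and 2069 of these 9302 moved at least 2-fold (1017 higher, 1052 lower). Without the correction 10446 genes were called and 3007 of them moved at least 2-fold. The fits called 6574 genes in the same direction (3296 higher, 3278 lower) and 391 in opposite directions. Genes named below as having moved were called in the same direction by both fits unless both values are printed. The background against which the counts of gene lists are to be read is 26.7% of tested genes higher and 25.6% lower.

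These genes stand in the title of the study, namely HBP1, MYCN and ALK. HBP1, a repressor that slows entry into the cell cycle, had 115, 91.2 and 98.5 adjusted CPM with both drugs, against 73.8, 68.6 and 71.2 with SAHA alone. The groups did not overlap, and the difference was 0.51 ± 0.07 (adjusted p = 1.05e-05) with the correction and 0.18 (adjusted p = 0.143) without it. MYCN, the amplified growth-promoting transcription factor, had 688, 612 and 724 adjusted CPM with both drugs, against 933, 822 and 918 with SAHA alone. All 3 combination libraries were below all 3 SAHA libraries at -0.40 ± 0.09 (adjusted p = 0.000804), but the uncorrected difference was -0.08 (adjusted p = 0.508). ALK, the amplified receptor kinase, had 3894, 3857 and 4063 adjusted CPM with both drugs, against 3796, 4439 and 4359 with SAHA alone. Its libraries overlapped, and the sign depended on the correction, with -0.09 ± 0.08 (adjusted p = 0.358) after it and 0.30 (adjusted p = 0.0107) before it. The calls for HBP1 and MYCN are thus made with the GC correction and not without it, and HBP1 overlaps COG5 on the other strand. HBP1 lies on chromosome 7 at 107168961 to 107202529, MYCN on chromosome 2 at 15940564 to 15947007 and ALK on chromosome 2 at 29192774 to 29921566 in build hg38.

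The deepest falls were in genes of DNA synthesis and the entry into S phase. Of 41 such genes tested, 40 fell and none rose, with a median of -2.38, against a median of 0.03 over all genes. Among the 12 genes that fell furthest with the correction while averaging a log2 CPM of at least 3, E2F1 and E2F2 encode the transcription factors that open S phase, MYBL2 a factor that acts with them, and UHRF1 a protein that guides the copying of DNA methylation. MCM10 and CDC6 help load and fire replication origins, RRM2 and TK1 make DNA precursors, DTL is a subunit of a ubiquitin ligase that acts during replication, ASF1B a histone chaperone and ESCO2 an enzyme that ties sister chromatids together. CAPN6, a calpain relative without protease activity that binds microtubules, is the one gene of the 12 outside the cell cycle.

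CAPN6 had 2.69, 2.25 and 2.15 adjusted CPM with both drugs, against 52.4, 57.7 and 60.6 with SAHA alone, a 24.1-fold fall (-4.59 ± 0.13, adjusted p = 3.44e-14). UHRF1 had 1.51, 1.43 and 2.17 with both drugs, against 26.3, 31.7 and 35.2 with SAHA alone, a fall of 18.0-fold (-4.17 ± 0.14). E2F1 had 5.79, 5.77 and 4.51 with both drugs, against 63.7, 72.0 and 70.8 with SAHA alone (-3.70 ± 0.10). In each of these 3 genes the lowest SAHA library was more than 10-fold above the highest combination library. RRM2, a subunit of ribonucleotide reductase, had 7.41, 5.998 and 8.07 adjusted CPM with both drugs, against 76.8, 100.2 and 96.0 with SAHA alone (-3.66 ± 0.12). MCM10 had 3.75, 3.02 and 3.56 with both drugs, against 40.8, 42.7 and 41.2 with SAHA alone (-3.59 ± 0.09). MYBL2 had 10.3, 10.3 and 9.03 with both drugs, against 95.5, 121 and 118 with SAHA alone (-3.51 ± 0.09). The remaining 6 genes moved to a like extent, with ASF1B at -3.47 ± 0.12, ESCO2 at -3.42 ± 0.11, CDC6 at -3.20 ± 0.09, E2F2 at -3.19 ± 0.13, TK1 at -3.16 ± 0.09 and DTL at -3.11 ± 0.09. ESCO2 overlaps the mitotic gene PBK on the other strand, so its reads are uncertain if strand was not used in counting.

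**Figure D2:**
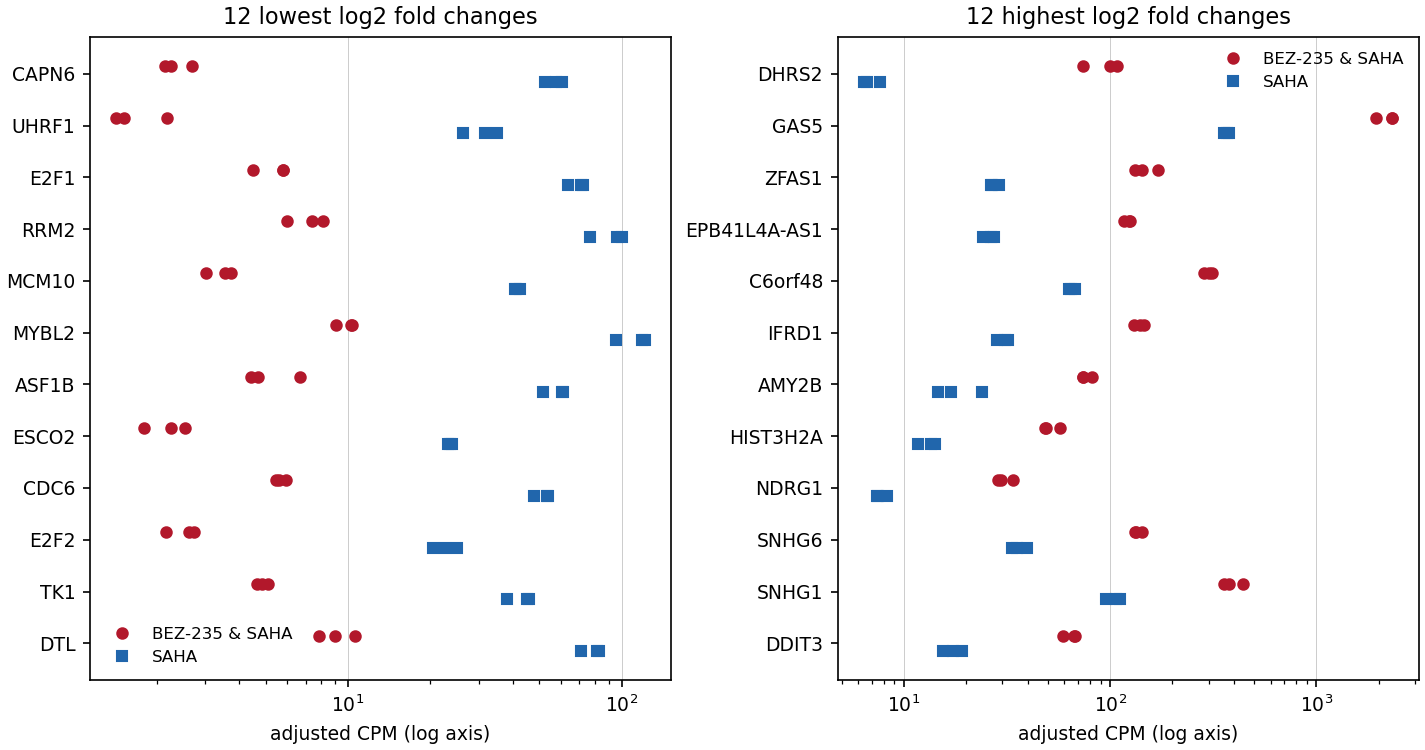
Adjusted CPM (log axis) of the 12 genes that fell furthest (left) and rose furthest (right) with the correction among genes whose log2 CPM averaged at least 3, each point a library, BEZ-235 & SAHA above SAHA in each row. No combination library overlaps a SAHA library in any of the 24 genes.

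DTL, ASF1B and ESCO2 are not on the replication list. Of its other genes, PCNA, the sliding clamp of the replication fork, had 35.2, 29.7 and 31.7 adjusted CPM with both drugs, against 113, 133 and 132 with SAHA alone (-1.97 ± 0.08). CLSPN, a checkpoint protein at the fork, had 0.656, 0.419 and 0.873 with both drugs, against 13.3, 15.4 and 13.6 with SAHA alone (-4.41 ± 0.18). All 7 genes of the list with an MCM symbol fell, and MCM7 fell least of them at -0.93 ± 0.06 (uncorrected -0.57), with 113, 106 and 102 adjusted CPM with both drugs, against 189.9, 214 and 206 with SAHA alone. The exceptions of the list were at its edge. CCNE1, the cyclin of the G1/S transition, had 8.83, 7.73 and 6.71 with both drugs, against 7.01, 8.93 and 10.8 with SAHA alone, and did not pass (-0.21 ± 0.15, adjusted p = 0.236, uncorrected -0.07), except without SAHA replicate 1 (-0.37, adjusted p = 0.0376). CDT1, a licensing factor, was at -0.35 ± 0.14 (adjusted p = 0.0473) with the correction and at 0.43 (adjusted p = 0.0485) without it. Its call was lost without BEZ-235 replicate 3, SAHA replicate 2 or 3, or combination replicate 1 or 2 (adjusted p = 0.0518 to 0.235). POLD1, a polymerase subunit, passed with it (-1.06) and not without it (-0.28, adjusted p = 0.241).

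Promoters of this group often carry the site that E2F factors bind. Letters of the E2F core (TTTCCCGC, TTTCGCGC, TTTGCCGC or TTTGGCGC on either strand) were sought in the RefSeq window from 250 bases before to 50 after the annotated start. They were found in 21 of 35 list genes with a window (60%), against 6.38% of the 11631 tested genes with a window. A gene was counted where any of its windows held the core. Counted by window and not by gene, the share was 3.31% of all 35116 windows. These sequences are shown for 4 of the genes that fell furthest (RefSeq, build GRCh38.p14, each 5′ to 3′ on the gene's strand, 60 bases within that window, 1 match to the core in capitals):
E2F1 (chr20:33686386-33686445, minus strand): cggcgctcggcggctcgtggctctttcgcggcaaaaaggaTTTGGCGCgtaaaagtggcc
UHRF1 (chr19:4909441-4909500, plus strand): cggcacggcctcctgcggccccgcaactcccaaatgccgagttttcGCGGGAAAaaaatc
E2F2 (chr1:23531242-23531301, minus strand): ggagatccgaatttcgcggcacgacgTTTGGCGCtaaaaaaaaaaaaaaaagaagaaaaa
DTL (chr1:212035688-212035747, plus strand): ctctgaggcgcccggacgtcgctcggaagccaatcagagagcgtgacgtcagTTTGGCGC
A match of letters is a description and does not show binding. Outside the replication and mitosis lists, 37.7% of 718 tested genes with such a core fell and 24.7% rose, against 29.9% and 28.2% of the 11631 tested genes with a window. These lists do not hold every cell cycle gene, and DTL is among the 718.

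Genes of mitosis fell as a block. All 36 tested members fell in both fits, within a range of -2.54 to -1.54 and with a median of -2.16. Their summed level was 1438 to 1626 adjusted CPM with both drugs, against 6178 to 6819 with SAHA alone. BIRC5, a subunit of the complex that corrects chromosome attachment, had the largest fall with the correction and ASPM without it. BIRC5 had 21.0, 17.8 and 21.8 adjusted CPM with both drugs, against 102, 124 and 126 with SAHA alone (-2.54 ± 0.10, adjusted p = 2.06e-12). MKI67, the proliferation antigen Ki-67, had 221, 199 and 216 with both drugs, against 1076, 1164 and 1081 with SAHA alone (-2.39 ± 0.07). CDK1, the kinase that starts mitosis, had 30.1, 26.6 and 30.8 with both drugs, against 131, 140.4 and 138 with SAHA alone (-2.23 ± 0.06). No library of either group came near the other in these genes. PRC1, which bundles the microtubules of the central spindle, had 45.3, 39.8 and 43.3 with both drugs, against 184, 204 and 198 with SAHA alone (-2.19 ± 0.06). CENPF, a kinetochore protein, had 295, 266 and 288 with both drugs, against 808, 884 and 771 with SAHA alone (-1.54 ± 0.07). Of 19 histone genes with polyadenylated transcripts 6 fell and 6 rose, and the lowest were H2AFX, the variant that marks DNA breaks (-2.35 ± 0.11, uncorrected -1.47), and H2AFZ, a variant found at promoters (-1.41 ± 0.07).

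The CHR element (TTTGAA or TTCGAA on either strand) is bound by the repressor complex that silences mitotic genes in resting cells. It was found in 23 of 30 mitosis genes with a window (76.7%), against 15.5% of the tested genes with a window. Counted by window and not by gene, the share was 16.4% of all windows. No word of one of these motifs holds a word of the other. It is shown in 4 promoters of genes named here (RefSeq, build GRCh38.p14, 60 bases 5′ to 3′ on the gene's strand, 1 match to the element in capitals):
CDK1 (chr10:60778144-60778203, plus strand): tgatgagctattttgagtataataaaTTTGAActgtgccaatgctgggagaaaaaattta
PRC1 (chr15:90994536-90994595, minus strand): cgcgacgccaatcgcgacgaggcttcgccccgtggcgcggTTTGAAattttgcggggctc
BUB1B (chr15:40161009-40161068, plus strand): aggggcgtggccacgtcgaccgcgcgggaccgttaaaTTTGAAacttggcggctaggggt
MKI67 (chr10:128126424-128126483, minus strand): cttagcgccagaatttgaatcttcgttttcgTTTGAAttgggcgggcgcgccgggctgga
The element is short and common, and outside the replication and mitosis lists 35.8% of 1776 tested genes that hold it fell and 25.7% rose. BUB1B, the checkpoint kinase of the third of these lines, had 30.6, 25.98 and 27.7 adjusted CPM with both drugs, against 139, 144 and 139 with SAHA alone (-2.32 ± 0.06).

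The list of cell cycle inhibitors, which also holds D cyclins, did not rise as a whole. Of 18 genes for CDK inhibitors, D cyclins and pocket proteins, 2 rose and 10 fell. The inhibitors were not counted apart from the D cyclins, whose falls are among the 10. CDKN1A, the p21 inhibitor that HDAC inhibitors commonly raise, had 128, 123 and 129 adjusted CPM with both drugs, against 283, 327 and 323 with SAHA alone, and fell (-1.30 ± 0.06, adjusted p = 1.06e-11). CCND1, cyclin D1, had 368, 445 and 432 with both drugs, against 629.6, 743 and 776 with SAHA alone (-0.79 ± 0.08). CDKN1B, the p27 inhibitor and a FOXO target, had 115, 145 and 155 with both drugs, against 102, 109 and 126 with SAHA alone, a small rise (0.30 ± 0.11, adjusted p = 0.0321) that did not pass in 10 of the alternatives, among them those without SAHA replicate 1 (0.21, adjusted p = 0.173) and without combination replicate 3 (0.18, adjusted p = 0.189). The groups overlapped for CDKN1B and not for CDKN1A or CCND1.

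Other p53 target genes fell alongside CDKN1A. Of 28 tested, 23 fell and 3 rose, with a median of -0.47. TIGAR, a regulator of sugar use, had 8.57, 8.95 and 6.21 adjusted CPM with both drugs, against 19.8, 23.1 and 23.2 with SAHA alone (-1.49 ± 0.12). FAS, a death receptor, had 7.98, 9.11 and 6.63 with both drugs, against 14.4, 16.9 and 15.3 with SAHA alone (-0.99 ± 0.11, uncorrected -1.51). DDB2, which recognises damaged DNA, had 25.8, 25.7 and 23.1 with both drugs, against 44.5, 47.7 and 46.2 with SAHA alone (-0.90 ± 0.06). In all 3 the groups were apart, as they were for MDM2, the ligase that degrades p53 (-0.43 ± 0.07, uncorrected -0.81). The members that rose included CD82, a membrane protein (0.71 ± 0.08, uncorrected 1.13), and BBC3, a death-promoting BCL2 relative (0.38 ± 0.09, uncorrected 1.44).

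Within the BCL2 family 8 of 16 tested genes rose and 4 fell. BMF, a BH3-only protein that promotes cell death, had 225, 221 and 218 adjusted CPM with both drugs, against 80.6, 65.2 and 67.2 with SAHA alone, a 3.13-fold rise (1.65 ± 0.09, adjusted p = 1.71e-10). BCL2, which protects cells, had 50.9, 54.5 and 49.8 with both drugs, against 24.6, 19.8 and 19.6 with SAHA alone (1.29 ± 0.10). BCL2L11, the BH3-only protein BIM, had 84.4, 86.2 and 90.3 with both drugs, against 57.0, 51.2 and 51.7 with SAHA alone (0.71 ± 0.06). The rises thus held members that promote death and members that prevent it. Among the falls were MCL1, a protector (-0.36 ± 0.07), and the death-promoting BAX (-0.72 ± 0.07, uncorrected -0.25), BID (-0.63 ± 0.09) and PMAIP1 (-0.58 ± 0.14, uncorrected -1.19).

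Transcripts of the translation machinery rose together. Of 78 cytosolic ribosomal protein genes, 76 rose and none fell, with a median of 1.08, and their summed share of all counts was 8.14 to 9.45% with both drugs, against 3.96 to 4.70% with SAHA alone. All 20 other tested genes of translation factors and related transcripts rose, with a median of 0.81, 18 of them also without the correction. RPL5, a protein of the large subunit, had 2516, 2018 and 2592 adjusted CPM with both drugs, against 708, 741 and 740.3 with SAHA alone (1.70 ± 0.11, adjusted p = 2.82e-09). RPS6, the classic substrate of the kinase below mTOR, had 2239, 2025 and 2638 with both drugs, against 866, 934 and 973 with SAHA alone (1.32 ± 0.10). RACK1, a scaffold on the small subunit, had 2823, 2607 and 2751 with both drugs, against 1178, 1204 and 1268 with SAHA alone (1.16 ± 0.07). In each gene the lowest combination library was above the highest SAHA library. EEF2, the elongation factor that moves the ribosome along, had 3753, 3803 and 4403 with both drugs, against 1783, 1905 and 2005 with SAHA alone (1.07 ± 0.08). The exceptions were RPS26, with 83.1, 73.9 and 82.7 with both drugs, against 80.8, 89.2 and 91.3 with SAHA alone (-0.13 ± 0.07, adjusted p = 0.171, or 0.0332 without SAHA replicate 1), and RPL35 (0.21 ± 0.11, adjusted p = 0.124). RPL35 passed without the correction (1.02) and without combination replicate 2 (0.32). It also passed with offsets for GC content alone (0.30), with offsets within groups (0.995) and with a filter at a mean CPM of at least 1 (0.23). Ribosomal protein genes have many near-identical pseudogenes, so the split of reads among copies is uncertain for each gene.

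Most of these transcripts belong to the TOP class, whose translation mTOR controls through a run of pyrimidines at the 5′ end. A C followed by 4 or more C or T at the annotated start was found in 46 of 62 ribosomal protein genes with a RefSeq window (74.2%). It was found in 13 of 14 of the other translation genes (92.9%), against 7.33% of the tested genes with a window. Counted by window and not by gene, the share was 4.07% of all 35116 windows. The motif was read on the gene's strand only, at the start, and was found in 5 of 16 snoRNA host genes (31.2%). The first 20 transcribed bases are shown for genes named here (RefSeq, build GRCh38.p14, 5′ to 3′, the pyrimidine run in capitals):
RPS6 (chr9:19380217-19380236, minus strand): CTCTTTTCCgtggcgcctcg
RPS27 (chr1:153990762-153990781, plus strand): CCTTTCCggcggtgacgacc
RACK1 (chr5:181243887-181243906, minus strand): CTCTCTTTCactgcaaggcg
EEF2 (chr19:3985444-3985463, minus strand): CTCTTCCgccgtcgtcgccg
TPT1 (chr13:45341164-45341183, minus strand): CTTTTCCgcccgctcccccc
EEF1A1 (chr6:73521013-73521032, minus strand): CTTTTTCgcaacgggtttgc
ZFAS1 (chr20:49278642-49278661, plus strand): CTTTCgcgtctgcggtgccc
C6orf48 (chr6:31834916-31834935, plus strand): CTTTTTgcgaagtgggctcg
SNHG5 (chr6:85678714-85678733, minus strand): CTTTTacgtcggccttcgcg
The last 3 of these lines are host genes of small nucleolar RNAs, described next. Outside the ribosomal, translation and snoRNA host lists, 38.7% of 789 tested genes with such a start rose and 24.7% fell, against 28.2% and 29.9% of all tested genes with a window. RPS27 was at 1.40 ± 0.10, TPT1, a tumour-associated TOP protein, at 1.03 ± 0.09 and EEF1A1, the factor that brings amino acids to the ribosome, at 0.76 ± 0.09.

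Host genes of small nucleolar RNAs, which guide the modification of ribosomal RNA, rose as well. Of 18 tested, 17 rose and 1 fell, with a median of 1.45, against 1.08 for the ribosomal protein genes. GAS5 had 2334, 1938 and 2316 adjusted CPM with both drugs, against 376, 357 and 369.8 with SAHA alone, a 5.98-fold rise (2.58 ± 0.08, adjusted p = 6.94e-14). ZFAS1 had 171, 132 and 142 with both drugs, against 26.8, 26.4 and 28.9 with SAHA alone (2.44 ± 0.08). SNHG1 had 442, 378 and 356 with both drugs, against 107, 112 and 95.9 with SAHA alone (1.90 ± 0.08). These 3 stood among the 12 genes with the highest rises, as did EPB41L4A-AS1 (2.23 ± 0.08), C6orf48 (2.21 ± 0.07) and SNHG6 (1.91 ± 0.07). SNHG5 had 223, 171 and 196 with both drugs, against 56.2, 57.9 and 61.1 with SAHA alone (1.75 ± 0.09). The gene that fell was SNHG14, a long transcript of the imprinted region of chromosome 15 that overlaps SNRPN and UBE3A, with 72.6, 79.7 and 65.4 with both drugs, against 108, 118 and 112 with SAHA alone (-0.64 ± 0.07). GAS5, ZFAS1 and EPB41L4A-AS1 overlap ZBTB37, ZNFX1 and EPB41L4A on the other strand, and the sources used here do not say whether strand was used in counting.

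The highest rise among genes that averaged a log2 CPM of at least 3 belonged to DHRS2, a mitochondrial reductase known for strong induction by HDAC inhibitors, with 99.7, 74.2 and 108 adjusted CPM with both drugs, against 6.42, 7.68 and 6.60 with SAHA alone. This was a 13.4-fold rise (3.74 ± 0.13, adjusted p = 1.48e-12). Of 14 tested HDAC inhibitor marker genes 4 rose, DHRS2 included, and 6 fell. PMEL, a pigment cell protein that overlaps CDK2 on the other strand, had 80.9, 75.7 and 66.5 with both drugs, against 179, 161 and 163 with SAHA alone (-1.17 ± 0.07), and STC1, a secreted glycoprotein, fell by 1.23 on the log2 scale. IFRD1, a transcriptional co-regulator, had 140.0, 130.1 and 146 with both drugs, against 31.9, 28.2 and 30.8 with SAHA alone (2.20 ± 0.06). NDRG1, a stress and differentiation gene that MYCN represses, had 29.6, 28.6 and 33.8 with both drugs, against 8.31, 7.45 and 7.47 with SAHA alone (2.00 ± 0.12). HIST3H2A, a histone H2A gene, had 48.9, 48.4 and 57.1 with both drugs, against 14.2, 11.8 and 13.5 with SAHA alone (2.00 ± 0.10). In these 3 genes every combination library was more than 3-fold above every SAHA library. AMY2B, an amylase gene with near-identical relatives that overlaps RNPC3 on its own strand, was at 2.07 ± 0.14.

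FOXO factors are held back by AKT, and 16 of their 30 tested target genes rose while 5 fell, with a median of 0.19. FBXO32, the ubiquitin ligase atrogin of wasting muscle, had 12.4, 11.1 and 9.91 adjusted CPM with both drugs, against 2.31, 2.17 and 2.35 with SAHA alone (2.30 ± 0.12, adjusted p = 3.16e-11). CREBRF, a regulator of a stress transcription factor, had 39.9, 39.0 and 45.5 with both drugs, against 15.2, 13.7 and 12.6 with SAHA alone (1.59 ± 0.10, uncorrected 0.96). KLHL24, an adaptor of a ubiquitin ligase, had 103, 105 and 110.4 with both drugs, against 54.0, 49.6 and 49.9 with SAHA alone (1.05 ± 0.06, uncorrected 0.45). In these 3 genes the groups did not overlap. MXI1, an antagonist of MYC proteins, followed at 0.90 ± 0.06. Against this direction, SESN3, a brake on mTOR, had 135, 149 and 127 with both drugs, against 302, 275 and 289 with SAHA alone (-1.07 ± 0.07, uncorrected -1.67). PIK3R1, the regulatory subunit of PI3K, had 36.2, 34.0 and 32.5 with both drugs, against 63.4, 59.2 and 59.1 with SAHA alone (-0.82 ± 0.07, uncorrected -1.28).

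**Figure D3:**
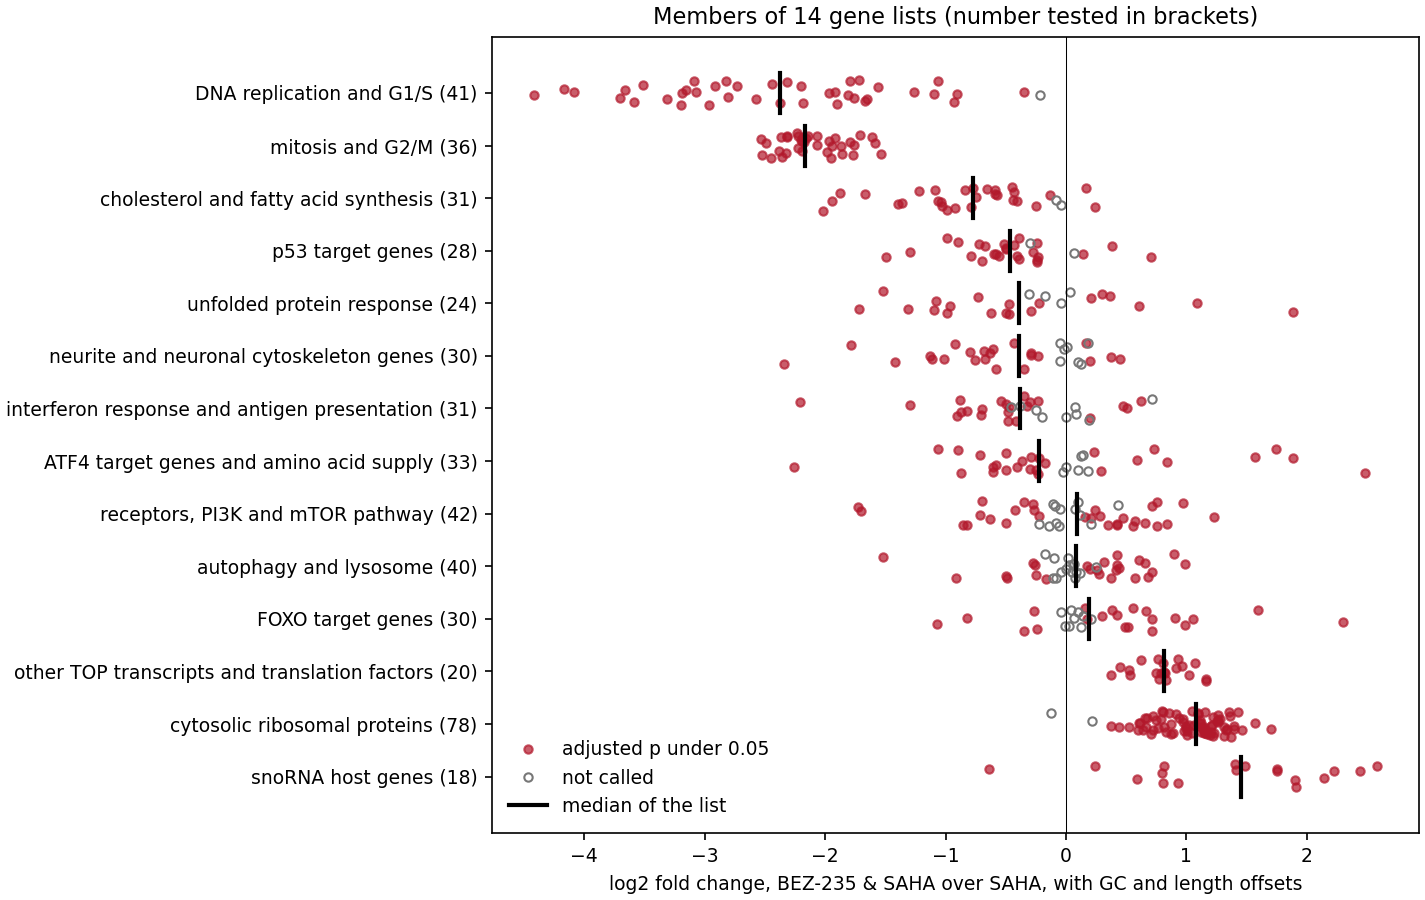
Log2 fold change of BEZ-235 & SAHA over SAHA for the members of 14 gene lists, 1 point a gene, filled where the adjusted p was under 0.05, with the list's median as a bar. The replication and mitosis lists sit at medians of -2.38 and -2.16, and the ribosomal protein and snoRNA host lists at 1.08 and 1.45.

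Genes of the inhibited pathway itself moved in both directions, 17 of 42 higher and 13 lower, against a background of 26.7% and 25.6%. At the receptor level INSR, the insulin receptor, had 31.3, 32.0 and 31.0 adjusted CPM with both drugs, against 21.6, 17.7 and 18.7 with SAHA alone (0.72 ± 0.08). The insulin receptor substrate IRS1 had 9.94, 11.8 and 12.1 with both drugs, against 6.23, 6.99 and 6.73 with SAHA alone (0.75 ± 0.10), and IRS2 was at 0.55 ± 0.09 (uncorrected 0.98). Among PI3K subunits PIK3R3 had 46.5, 41.7 and 36.2 with both drugs, against 129.5, 143 and 138 with SAHA alone (-1.72 ± 0.08). AKT1, a form of the kinase AKT, turned with the correction, at -0.22 ± 0.07 (adjusted p = 0.0149) with it and 0.39 (adjusted p = 0.00194) without it. It did not pass without SAHA replicate 3 or combination replicate 2 (adjusted p = 0.0923 and 0.0695).

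At the level of mTOR, the kinase gene MTOR had 47.0, 39.4 and 40.1 adjusted CPM with both drugs, against 58.8, 57.2 and 53.4 with SAHA alone (-0.42 ± 0.07). RHEB, the small GTPase that activates it, had 79.8, 72.8 and 69.2 with both drugs, against 103, 114 and 126 with SAHA alone (-0.63 ± 0.07). Its brakes did not move as one. TSC2, which inactivates RHEB, had 75.03, 77.1 and 73.6 with both drugs, against 52.6, 52.9 and 45.7 with SAHA alone (0.57 ± 0.06, uncorrected 1.09), and DEPTOR, an inhibitor within the complex, rose as well (0.84 ± 0.10). DDIT4, a stress-induced brake, had 13.7, 16.4 and 14.8 with both drugs, against 44.6, 51.2 and 49.9 with SAHA alone and fell (-1.70 ± 0.08). ULK1, the kinase that starts autophagy when mTOR is off, had 38.8, 46.6 and 41.4 with both drugs, against 27.9, 26.2 and 26.8 with SAHA alone (0.65 ± 0.08, uncorrected 1.39). TSC2 overlaps PKD1 and DDIT4 overlaps DDIT4-AS1 on the other strand.

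Of 40 tested genes of autophagy and the lysosome, 17 rose and 8 fell. SQSTM1, the cargo receptor p62, had 357, 332 and 379.6 adjusted CPM with both drugs, against 192, 188 and 194 with SAHA alone (0.90 ± 0.07). GABARAPL1, a protein of the autophagosome membrane, had 37.6, 32.1 and 33.3 with both drugs, against 19.5, 16.2 and 16.6 with SAHA alone (0.99 ± 0.10). SQSTM1 overlaps MGAT4B on the other strand. NEU1, a lysosomal sialidase, rose as well (0.72 ± 0.08). Against these rises, GLA, an alpha-galactosidase, had 12.2, 8.21 and 10.2 with both drugs, against 30.4, 28.0 and 29.7 with SAHA alone (-1.52 ± 0.12).

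Genes of cholesterol and fatty acid synthesis, which SREBP factors switch on, mostly fell. Of 31 tested genes 27 fell and 2 rose, with a median of -0.77. ACAT2, which makes acetoacetyl-CoA, had 15.6, 13.2 and 13.1 adjusted CPM with both drugs, against 31.4, 37.7 and 37.9 with SAHA alone (-1.36 ± 0.10, adjusted p = 3.81e-09). SREBF1, which encodes an SREBP factor, had 17.0, 15.8 and 16.6 with both drugs, against 50.2, 51.0 and 55.7 with SAHA alone (-1.67 ± 0.08, uncorrected -1.01). In these genes the SAHA libraries were more than 2-fold above the combination libraries. SREBF1 overlaps RAI1 on the other strand. The genes that rose were FASN, the fatty acid synthase (0.17 ± 0.07, adjusted p = 0.0432, uncorrected 0.98), and ACSS2, an acetyl-CoA synthetase (0.24 ± 0.07, adjusted p = 0.0114, uncorrected 0.46). The call for FASN was lost in 15 of the alternatives, 10 of which left out 1 library, with an adjusted p of 0.335 with no filter on low counts and of 0.244 and 0.262 without SAHA replicate 1 and combination replicate 3. The call for ACSS2 was lost in 3, among them those without SAHA replicate 2 (adjusted p = 0.0699) and without combination replicate 1 (adjusted p = 0.0836).

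Among 24 tested glycolysis genes 11 fell and 4 rose with the correction, and 7 fell and 7 rose without it. PKM, the pyruvate kinase, had 575, 522 and 579.9 adjusted CPM with both drugs, against 1083, 1049 and 1022 with SAHA alone (-0.91 ± 0.06). LDHA, which makes lactate, had 318, 295 and 309.9 with both drugs, against 499, 516 and 518 with SAHA alone (-0.73 ± 0.06), while its partner LDHB was at 0.45 ± 0.09. PFKM, the muscle form of phosphofructokinase, had 486, 451 and 477 with both drugs, against 316, 287 and 277 with SAHA alone (0.69 ± 0.06). Of the 13 genes of the mitochondrial genome, 8 fell and none rose. MT-CO1, a subunit of cytochrome oxidase, had 18140, 19560 and 16250 adjusted CPM with both drugs, against 28350, 22800 and 23610 with SAHA alone (-0.47 ± 0.10).

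ATF4, the factor that stress kinases turn on when amino acids or protein folding fail, rose, while the list of its targets and amino acid supply genes was divided. ATF4 had 952, 779 and 822 adjusted CPM with both drugs, against 229.6, 263 and 268 with SAHA alone (1.75 ± 0.08, adjusted p = 8.84e-12). DDIT3, the stress factor CHOP, had 67.5, 58.8 and 67.1 with both drugs, against 17.4, 19.1 and 15.4 with SAHA alone (1.89 ± 0.09). CEBPB, a partner of both, had 28.3, 24.1 and 23.1 with both drugs, against 8.83, 8.23 and 8.36 with SAHA alone (1.57 ± 0.10, uncorrected 2.40). Of the 33 tested genes of this list, which holds ATF4 itself, 18 fell and 9 rose, with a median of -0.23. Without the correction 15 fell and 10 rose, with a median of -0.03. The falls held enzymes and carriers of amino acid supply, such as PSAT1 of serine synthesis, with 36.0, 38.3 and 43.8 with both drugs, against 67.3, 72.3 and 79.96 with SAHA alone (-0.90 ± 0.07). SLC7A11, the cystine carrier, was low in both groups, with 0.648, 0.361 and 0.626 with both drugs, against 2.32, 2.90 and 2.57 with SAHA alone (-2.26 ± 0.29). SLC7A5, the leucine carrier, was at -0.87 ± 0.07 (uncorrected -0.31). DDIT3 overlaps MARS and MBD6 on the other strand.

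Of 24 tested genes of the unfolded protein response 14 fell and 6 rose with the correction, and 17 fell and 4 rose without it. HSPA5, the chaperone BiP of the endoplasmic reticulum, had 242, 208 and 217 adjusted CPM with both drugs, against 429.7, 488 and 487 with SAHA alone (-1.08 ± 0.07). PDIA4, a disulfide isomerase, had 49.2, 50.7 and 48.5 with both drugs, against 121, 121 and 125 with SAHA alone (-1.31 ± 0.05). MANF, a secreted folding factor, was at -1.52 ± 0.08 and CALR, the chaperone calreticulin, at -1.10 ± 0.05. PPP1R15A, which switches translation back on after stress, had 26.1, 25.0 and 24.9 with both drugs, against 12.4, 12.1 and 11.2 with SAHA alone and rose (1.09 ± 0.08). In the cytosolic heat shock list 6 of 20 genes rose and 6 fell, close to the background.

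Genes of MYC proteins' growth programme moved in both directions, 11 of 35 tested targets higher and 12 lower, against a background of 26.7% and 25.6%. Their median was -0.04, and 7 were higher and 9 lower in both fits. EIF5A, a translation factor, had 261, 234.7 and 252 adjusted CPM with both drugs, against 384, 443 and 469 with SAHA alone (-0.80 ± 0.07, uncorrected -0.42). TFAP4, a transcription factor, had 9.34, 8.76 and 11.97 with both drugs, against 4.70, 4.89 and 5.96 with SAHA alone (0.96 ± 0.15). TERT, the catalytic subunit of telomerase, was low in both groups, with 0.419, 0.414 and 0.485 with both drugs, against 2.41, 1.48 and 1.33 with SAHA alone (-1.92 ± 0.26, uncorrected -1.10).

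Genes of the neuronal cell body and its processes fell more often than they rose. Of 30 tested neurite and cytoskeleton genes 19 fell and 4 rose, with a median of -0.39. TUBA1A, the tubulin of growing neurons, had 354, 351 and 354 adjusted CPM with both drugs, against 1581, 1888 and 1885 with SAHA alone, a 5.05-fold fall (-2.34 ± 0.08). GAP43, a protein of growth cones, had 67.6, 66.8 and 73.7 with both drugs, against 216, 246 and 255.4 with SAHA alone (-1.79 ± 0.08). ANK3, which organises the start of the axon, had 28.0, 27.4 and 30.0 with both drugs, against 78.8, 77.1 and 72.1 with SAHA alone (-1.42 ± 0.07). No library of one group reached the other in these genes. Synapse and vesicle genes were divided at 8 higher and 11 lower of 25. DLG4, the scaffold of the postsynaptic density, which overlaps ACADVL on the other strand, had 97.2, 105 and 97.3 with both drugs, against 36.4, 36.4 and 37.5 with SAHA alone (1.44 ± 0.06).

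Of 28 adrenergic neuroblastoma genes, the transcription factors and enzymes of the sympathetic lineage, 11 fell and 8 rose with the correction, and 6 fell and 11 rose without it. ISL1, a factor of sympathetic neurons, had 14.3, 14.4 and 16.1 adjusted CPM with both drugs, against 27.9, 28.8 and 33.2 with SAHA alone (-1.004 ± 0.10). Of 24 mesenchymal neuroblastoma genes 11 fell and 4 rose. FN1, fibronectin, had 104, 114 and 116 with both drugs, against 219.5, 195 and 181 with SAHA alone (-0.83 ± 0.07). LUM, a matrix protein and the strongest of the fibroblast markers, had 152, 114 and 128 with both drugs, against 319.6, 292 and 281 with SAHA alone (-1.18 ± 0.09, uncorrected -1.79).

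Among genes that report RAS-MAPK signalling 9 of 25 rose, while 8 fell with the correction and 5 without it. JUN, an AP-1 factor, had 20.7, 21.8 and 22.2 adjusted CPM with both drugs, against 50.4, 49.2 and 53.5 with SAHA alone (-1.24 ± 0.09). DUSP6, the phosphatase that ERK induces, had 13.7, 13.2 and 13.5 with both drugs, against 18.6, 22.4 and 25.1 with SAHA alone (-0.72 ± 0.15). Among 31 interferon and antigen presentation genes 18 fell and 4 rose with the correction, and 10 fell and 5 rose without it. OAS3, a sensor of viral RNA, had 2.17, 2.08 and 2.26 with both drugs, against 9.05, 10.5 and 10.4 with SAHA alone (-2.20 ± 0.13), whereas HLA-E, a nonclassical MHC gene, was at 0.50 ± 0.07.

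The same drug was also given without SAHA, and these comparisons share no library. BEZ-235 over DMSO called 5048 genes higher (28.4%) and 4929 lower (27.7%). Of the 9302 genes that moved under SAHA, 70.8% moved the same way without it and 2.87% the opposite way. Those moving the same way were 66% of the genes called without SAHA. Across the 17774 genes the log2 fold changes had a Pearson r of 0.60 and a Spearman rho of 0.69, a description over genes that are not independent replicates. Without SAHA all 41 replication genes fell, as did all 36 mitosis genes and all 31 cholesterol and fatty acid genes, and 75 of 78 ribosomal protein genes rose while 1 fell.

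**Figure D4:**
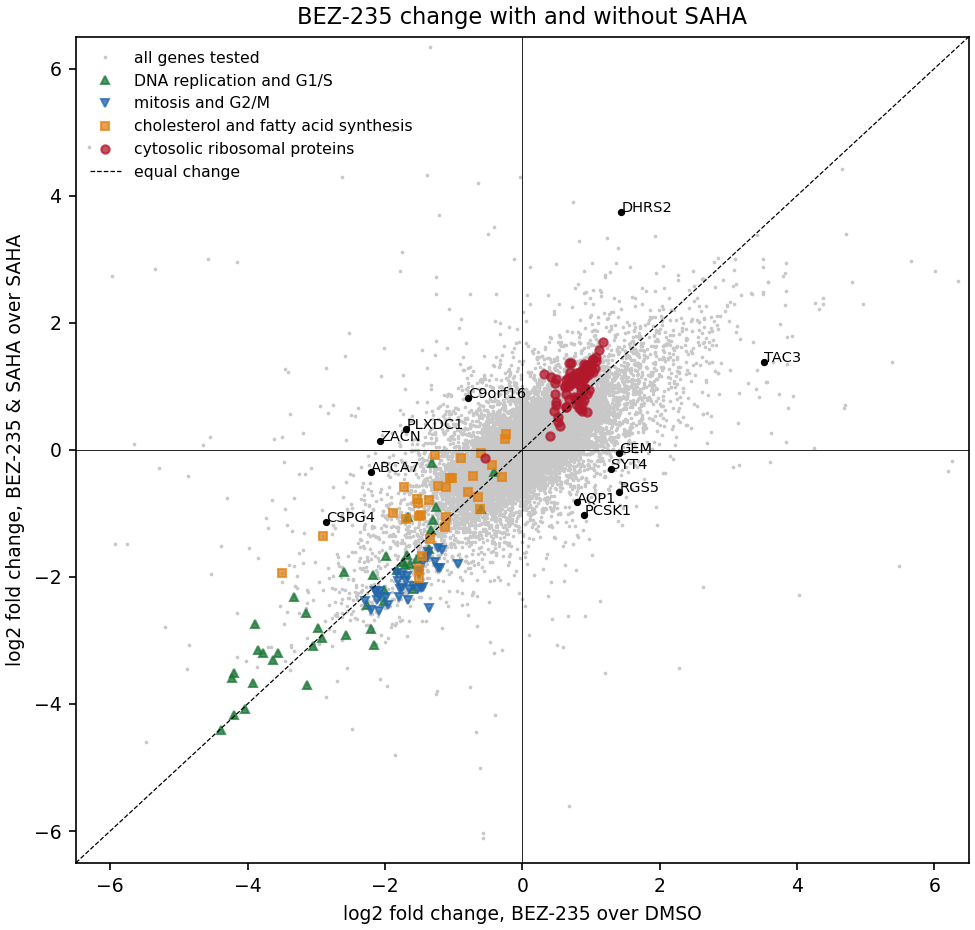
Log2 fold change of BEZ-235 & SAHA over SAHA (y axis) against that of BEZ-235 over DMSO (x axis) for all genes tested, with 4 gene lists and the 12 genes whose changes differed most. Most mitosis genes lie below the line of equal change and most cholesterol and fatty acid genes above it, and 48 genes lie outside the axes.

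Whether a change differed with SAHA was tested as an interaction, the change with SAHA minus the change without it. It was above 0 in 1659 genes (9.33%) and below 0 in 1772 (9.97%) with the correction, and 6834 genes passed without the correction, of which 2168 were called the same way in both fits. Without BEZ-235 replicate 3 the count with the correction was 2253, against 3431 with all libraries. Mitosis genes fell further with SAHA, with an interaction below 0 in 25 of 36 and above 0 in none. In these genes SAHA alone stood above DMSO, at 6178 to 6819 against 4895 to 5189 summed adjusted CPM, while the groups with BEZ-235 lay close together, at 1438 to 1626 with both drugs and 1528 to 1577 with BEZ-235. ASPM, a spindle pole protein, was at -2.49 with SAHA and at -1.36 without it (interaction -1.13 ± 0.10, adjusted p = 2.94e-06, uncorrected -1.80). Cholesterol and fatty acid genes fell less with SAHA, with an interaction above 0 in 20 of 31 and below 0 in 3 with the correction, and in 16 and 1 without it. Their summed level was 2496 to 2559 adjusted CPM with both drugs, against 3909 to 4174 with SAHA alone, and 3133 to 3291 with BEZ-235, against 6075 to 6410 with DMSO. ACAT2 was at -1.36 with SAHA and at -2.90 without it (interaction 1.54 ± 0.14, adjusted p = 2.94e-06).

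Single genes were taken from those with an interaction called in both fits and a mean log2 CPM of at least 3. DHRS2 had the highest interaction of these with the correction. It had 99.7, 74.2 and 108 adjusted CPM with both drugs and 6.42, 7.68 and 6.60 with SAHA, against 4.30, 4.47 and 3.93 with BEZ-235 and 1.62, 1.76 and 1.29 with DMSO. Its rise of 3.74 with SAHA exceeded that of 1.44 ± 0.23 without it by 2.30 ± 0.29 (adjusted p = 0.000100). CSPG4, a surface proteoglycan, had 15.9, 16 and 18.1 with both drugs and 31.6, 38.9 and 39.1 with SAHA, against 6.89, 9.47 and 9.70 with BEZ-235 and 64.1, 59.8 and 65.0 with DMSO. Its fall with SAHA, at -1.13 (uncorrected -0.43), was smaller than that without it (interaction 1.73 ± 0.15, adjusted p = 2.94e-06). ABCA7, a lipid transporter, did not pass with SAHA (-0.35 ± 0.17, adjusted p = 0.118, uncorrected 0.39) unless SAHA replicate 3 was left out (-0.50, adjusted p = 0.0118) or no filter on low counts was used (-0.40), and fell by 2.20 without it (interaction 1.85 ± 0.29). ZACN, a zinc-gated channel that overlaps the more abundant EXOC7, was also among the 6 highest (2.21 ± 0.63, adjusted p = 0.0432), but it had 25.8, 34.8 and 16.4 with both drugs and 19.0, 15.7 and 35.5 with SAHA, and its call was lost in 11 of the alternatives (adjusted p = 0.0674 to 0.106).

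At the other end, TAC3, the precursor of neurokinin B, had 33.4, 32.4 and 33.4 adjusted CPM with both drugs and 18.8, 10.3 and 10.4 with SAHA, against 14.9, 11.8 and 14.03 with BEZ-235 and 1.15, 1.28 and 1.09 with DMSO. Every group with a drug stood above DMSO, and the rise under SAHA (1.37 ± 0.18) was smaller than that without it (3.53 ± 0.28), with an interaction of -2.15 ± 0.35 (adjusted p = 0.00141). GEM, a small GTPase, had 48.4, 39.3 and 53.6 with both drugs and 51.5, 45.3 and 50.3 with SAHA, against 46.9, 52.7 and 53.8 with BEZ-235 and 18.9, 20.4 and 18.4 with DMSO. The 3 groups with a drug overlapped one another and stood above DMSO, and the interaction was -1.46 ± 0.14 (adjusted p = 5.27e-06).

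A set of 99 genes moved in opposite directions with and without SAHA in both fits and had a called interaction, 44 of them above 0 and 55 below. PLXDC1, a membrane receptor, had 18.3, 18.4 and 16.1 adjusted CPM with both drugs and 13.5, 14.4 and 13.7 with SAHA, against 14.4, 18.1 and 15.9 with BEZ-235 and 58.3, 52.0 and 45.9 with DMSO. It rose slightly with SAHA (0.33 ± 0.10) and fell without it (-1.69 ± 0.10). CDHR1, a cadherin relative of photoreceptors, had 37.5, 37.5 and 33.5 with both drugs and 18.2, 16.7 and 16.1 with SAHA, against 41.8, 44.0 and 41.9 with BEZ-235 and 69.2, 52.7 and 56.9 with DMSO (interaction 1.58 ± 0.13). C9orf16 (1.60 ± 0.24) and REX1BD (1.20 ± 0.19) completed the 4 highest, and REX1BD overlaps another expressed gene, so its reads are uncertain. In these genes the BEZ-235 libraries lay below the DMSO libraries while the combination libraries lay above the SAHA libraries. The change of C9orf16 with SAHA was 0.81 (uncorrected 1.38).

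In the opposite sense, PCSK1, a protease that matures prohormones, had 37.0, 38.1 and 40.4 adjusted CPM with both drugs and 77.1, 81.8 and 75.4 with SAHA, against 69.3, 108 and 90.3 with BEZ-235 and 53.5, 41.4 and 48.3 with DMSO. It fell with SAHA (-1.02 ± 0.14) and rose without it (0.90 ± 0.14), an interaction of -1.92 ± 0.19 (adjusted p = 7.02e-05). AQP1, a water channel, had 12.2, 13.5 and 11.9 with both drugs and 24.4, 19.8 and 22.8 with SAHA, against 17.9, 24.8 and 22.4 with BEZ-235 and 11.4, 13.8 and 12.02 with DMSO (interaction -1.63 ± 0.17). RGS5, a brake on G protein signalling, fell to 19.98, 21.5 and 18.1 with both drugs, against 35.8, 28.9 and 30.2 with SAHA, and rose to 5.08, 7.20 and 5.66 with BEZ-235, against 2.79, 2.12 and 1.91 with DMSO (interaction -2.07 ± 0.21). SYT4, a vesicle protein, was at -0.30 ± 0.09 (uncorrected -0.83) with SAHA and at 1.29 ± 0.10 without it. With SAHA, AQP1 was at -0.82 (uncorrected -0.53) and RGS5 at -0.66 (uncorrected -1.26). RGS5 overlaps NUF2, a mitotic gene of the lists, on the other strand.

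**Figure D5:**
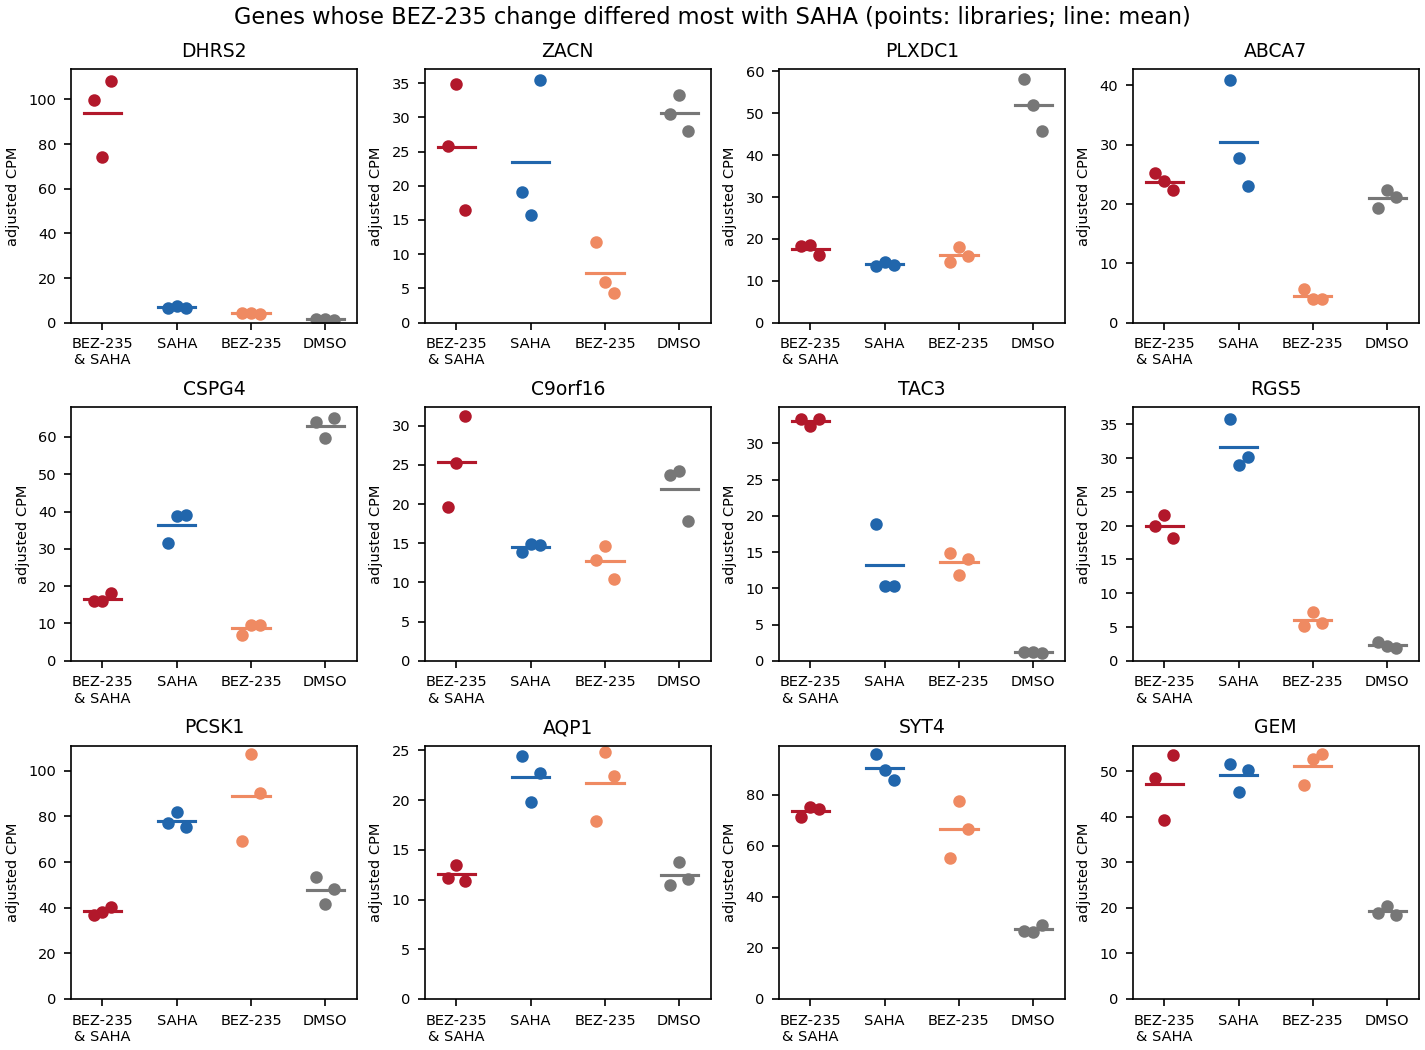
Adjusted CPM of the 12 genes with the highest (first 6) and lowest interaction in the 4 groups, each point a library and each line a group mean. DHRS2 stands apart in the combination libraries at 74.2 to 108, and PCSK1 is lowest there at 37.0 to 40.4.

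Of the title genes, HBP1 differed with and without SAHA in both fits, and MYCN and ALK only with the correction. HBP1 had 105, 115 and 112 adjusted CPM with BEZ-235, against 58.1, 61.7 and 58.8 with DMSO, a rise of 0.89 ± 0.07 that the rise under SAHA fell short of (interaction -0.38 ± 0.10, adjusted p = 0.0137, uncorrected -0.68). MYCN had 1107, 1094 and 1154 with BEZ-235, against 947, 1147 and 1192 with DMSO, and did not pass there (0.03 ± 0.09, adjusted p = 0.791). Its interaction was -0.43 ± 0.12 (adjusted p = 0.0198) with the correction and -0.04 (adjusted p = 0.856) without it. ALK had 5128, 5458 and 5763 with BEZ-235, against 4768, 4074 and 4729 with DMSO, and its interaction was -0.36 ± 0.11 (adjusted p = 0.0359) with the correction and 0.06 (adjusted p = 0.756) without it.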

How the data were processed

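Libraries of polyadenylated RNA (TruSeq Stranded mRNA, per the labels' protocols) were processed by the authors with STAR, RSEM and build hg38, which the submitters' processing notes name. Their versions, the annotation and the strand setting of counting were not given in the sources used here. Deposited values are expected counts per gene, estimated numbers of reads that need not be whole, and were rounded to whole counts here. The table holds 58051 genes, of which 21571 were at 0 in every library, and 17774 passed edgeR's filter on low counts. GC content and length came from the longest GENCODE 29 transcript of each gene and were known for 99.3% of tested genes. Per library, the trend of log2 CPM with GC content and log2 length (natural splines, 5 df each) was fitted and used as an offset, and TMM scaling was recomputed.

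One robust quasi-likelihood fit (edgeR 4.0.16 in R 4.3.3) took in all 12 libraries as 4 group means, with 8 residual degrees of freedom, 2-sided tests and Benjamini-Hochberg adjustment over all tested genes at 0.05. Each SE is the absolute log2 fold change over the square root of the test's F. It thus draws on the spread over all 12 libraries and not only on the groups compared. The biological coefficient of variation was 8.06% with the offsets and 10.6% without them. No libraries held identical counts. The fit was tested on simulated data.

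The comparison and the gene lists were chosen with earlier results of these data known, so lists are given as counts and medians without a test. Genes were named by a fixed rule: the title genes, the 12 highest and 12 lowest changes at a mean log2 CPM of at least 3 with groups apart and the same call with and without offsets, up to 4 members per list and direction by smallest p, and the highest and lowest interactions. Other list members named were chosen for their role after their values were seen. Motifs were read from RefSeq promoter windows (GRCh38.p14), matched by gene identifier, or else by symbol or synonym, for 11631 tested genes. Alternatives were no offsets, offsets for GC alone or within groups, another scaling, DESeq2 1.42.0, other filters, unrounded counts, a replicate block, the 6 libraries alone and each library left out. A few genes are not reported here by name; they stay in the counts and medians of their lists.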

Additional observations from a re-analysis of the deposited data

Results flagged for a closer look

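Of the 138 genes named with values, 49 responded differently to BEZ-235 with and without SAHA, with an adjusted interaction p under 0.05 (edgeR's quasi-likelihood test) both with and without the GC and length correction. Of all 17774 genes tested, 2168 did so (12.2%), and part of the named genes were chosen for a high or low interaction, so the 2 counts cannot be set against each other. The interaction, the log2 change with SAHA minus that without it, was above 0 in 25 of the named genes and below 0 in 24. The values below are from the corrected fit, each given after its gene, with the uncorrected value where it differed by more than 1.5 times.

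In the cholesterol and fatty acid list the interaction was above 0 for ACAT2 (1.54), FASN (0.42, uncorrected 1.38) and ACSS2 (0.47, uncorrected 0.73). In the replication list 10 of 41 genes were above 0 and 7 below, and the named genes called in both fits were CCNE1 (1.09), TK1 (0.69, uncorrected 1.51), MYBL2 (0.69, uncorrected 1.34), POLD1 (0.61, uncorrected 1.62) and CDC6 (0.57), all above 0. E2F1 stood below 0 with the correction (-0.56, adjusted p = 0.00993) and at 0.24 (adjusted p = 0.274) without it. In the mitosis list it was below 0 for ASPM (-1.13, uncorrected -1.80), PRC1 (-0.68), BUB1B (-0.34, uncorrected -0.61) and CENPF (-0.32, uncorrected -0.81). DHRS2, the gene with the highest rise under both drugs, stood at 2.30. The other named genes above 0 were ZACN (2.21), PLXDC1 (2.02), ABCA7 (1.85), CSPG4 (1.73), C9orf16 (1.60), CDHR1 (1.58), DUSP6 (1.47), LUM (1.30, uncorrected 0.71), REX1BD (1.20), FN1 (1.07, uncorrected 0.66), ANK3 (0.93, uncorrected 0.47), GAP43 (0.89), OAS3 (0.69), DLG4 (0.42), RPS26 (0.42) and DDIT4 (0.40, uncorrected 0.87).

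In the FOXO target list 3 of 30 genes were above 0 and 13 below (2 and 17 without the correction). Its named genes below 0 in both fits were FBXO32 (-0.79), SESN3 (-0.90, uncorrected -1.56), GABARAPL1 (-0.58), KLHL24 (-0.54, uncorrected -1.19), PIK3R1 (-0.49, uncorrected -0.98) and HBP1 (-0.38, uncorrected -0.68), besides BCL2L11. In the BCL2 family none of 16 genes was above 0 and 3 were below with the correction, against 7 above and 4 below without it, and the named genes were BMF (-1.12), BCL2 (-0.52) and BCL2L11 (-0.28, uncorrected -0.44). The other named genes below 0 were TAC3 (-2.15), RGS5 (-2.07), PCSK1 (-1.92), AQP1 (-1.63), SYT4 (-1.58), GEM (-1.46), PMEL (-1.21), ZFAS1 (-0.74, uncorrected -0.44), DEPTOR (-0.53), SNHG1 (-0.48, uncorrected -0.74) and SNHG14 (-0.34, uncorrected -0.63).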

How the results depend on the processing

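Under 22 alternatives the number of genes called ranged from 8029 (without SAHA replicate 2) to 11181 (offsets within groups), against 9302, and the number called at least 2-fold from 1487 (mean CPM of at least 1) to 3007 (no offsets), against 2069. The count of called interactions was 6834 without offsets and 8030 with offsets within groups, against 3431, and with 1 library left out it lay between 2253 (without BEZ-235 replicate 3) and 3520. HBP1 was at 0.18 (adjusted p = 0.143) without offsets and 0.16 (adjusted p = 0.0608) with offsets within groups, and at 0.39 to 0.58 with 1 library left out. MYCN was at -0.08 (adjusted p = 0.508) and -0.10 (adjusted p = 0.306) under the same pair of alternatives and at -0.48 to -0.33 with 1 library left out. ALK changed sign, to 0.30 (adjusted p = 0.0107) without offsets and 0.27 (adjusted p = 0.00899) with offsets within groups, and lay at -0.18 to -0.06 with 1 library left out. The cause was not tested. All 36 mitosis genes fell in every alternative, 38 to 41 of the replication genes fell, and 76 or 77 of the ribosomal protein genes rose. Of the other lists, 18 to 20 translation genes, 15 to 17 snoRNA host genes and 13 to 16 FOXO targets rose, and 25 to 27 cholesterol genes fell. Of the other 135 genes named with values, 129 were called, and 123 of these kept their call and direction in every alternative. FASN lost its call in 15, CDKN1B in 10, CDT1 in 9, ACSS2 in 3, AKT1 in 2 and POLD1 in 1. Without offsets and with offsets within groups, the sign turned for CDT1 (0.43 and 0.38), AKT1 (0.39 and 0.35) and the uncalled ABCA7 (0.39 and 0.38). GEM and ZACN, neither called in this comparison, lay at -0.18 to 0.058 and at -0.14 to 0.57 with 1 library left out, on both sides of 0. Without offsets GEM was at -0.19 and ZACN at 0.57, against -0.05 and 0.14 with the correction. Of the 49 interactions called in both fits, 41 kept their call in every alternative. ZACN lost it in 11, BCL2L11 and CENPF in 7 each, DDIT4 in 4, OAS3 and POLD1 in 2 each and GABARAPL1 and RPS26 in 1 each, mostly with 1 library left out. Libraries with the same number did not deviate together (r = -0.0393, -0.116 and 0.0359 over genes), and no combination library correlated best with its own number. The fit with a replicate block and the offsets called 8945 genes, 2034 of them at least 2-fold, and 2945 interactions. DESeq2 called 8943 genes.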

Other observations

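Kinds of transcript differed in how often they moved when BEZ-235 was present with SAHA. Of 902 tested lincRNAs 27.9% rose and 10.3% fell, and of 13468 protein-coding genes 27.7% rose and 30.4% fell. Antisense transcripts rose in 19.1% and fell in 11.1%, and processed pseudogenes rose in 25.6% and fell in 12.6%. Noncoding genes have fewer counts on the whole, and the part of depth in these shares was not tested.

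Large changes with and without SAHA were mostly shared. Of 2484 genes that moved at least 2-fold with BEZ-235 over DMSO, 74.2% were called in the same direction with SAHA present. Of the 2069 that moved at least 2-fold with SAHA, 76.4% were called in the same direction without it, 8 in the opposite direction and 481 not at all.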
